A study of Mus musculus with 24 samples.

Results

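Fatty acids reach the inside of an adipocyte through a short chain of proteins, and 7 genes of that chain are described here across adipogenesis: *Lpl*, *Cd36*, *Slc27a1*, *Acsl1*, *Fabp4*, *Fabp5* and *Dbi*. They were chosen by gene symbol, 7 of the 26995 symbols counted, and where a symbol had several counted entries, the one with most total reads on average across the 24 libraries stands for it. All 7 passed the filter on low counts in total reads, as did 13335 symbols, and in labelled reads, as did 6466 symbols. The cells were 3T3-L1, a clonal line of mouse pre-adipocytes that turns into lipid-filled adipocytes in culture. They were grown in DMSO, the vehicle, or in 0.5 μM ML-792, an inhibitor of the SUMO-activating enzyme SAE1/2, and harvested at day −2 (pre-adipocytes) and at days 1, 3 and 7 after induction. Induction medium held 10% fetal bovine serum, 10 μg/ml insulin, 0.5 mM 3-isobutyl-1-methylxanthine and 1 mM dexamethasone as the labels give it, and from day 3 both treatments were kept in serum and insulin. Each of the 8 conditions had 3 biological replicates, A, B and C, and every culture received 100 μM 4-thiouridine for 45 min before harvest. When ML-792 was first added to these cultures was not given in the sources used here.

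Circulating triglyceride is too large to enter a cell. Lipoprotein lipase, the product of *Lpl*, is secreted by adipocytes and releases fatty acids from lipoproteins, CD36 takes them up at the plasma membrane, and the transporter FATP1 (*Slc27a1*) and the long-chain acyl-CoA synthetase ACSL1 (*Acsl1*) couple entry to conversion into acyl-CoA, which holds them inside. In the cytosol, free fatty acids are carried by FABP4, also known as aP2 and a classic marker of fat cells, and by its relative FABP5, whereas acyl-CoA esters are bound by the acyl-CoA binding protein encoded by *Dbi*. Several of these genes are textbook targets of PPARγ, the nuclear receptor that drives adipogenesis.

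QuantSeq counts all polyadenylated RNA by its 3′ end. SLAMseq counts, in the same libraries, the reads that carry at least 1 T>C conversion, which are taken as RNA made during the pulse. No library went without 4-thiouridine, so the rate of T>C mismatches from other sources was not measured. Libraries held 13554718 to 27013352 total reads and 115709 to 820046 labelled reads. The labelled share of a library was 2.68% to 3.68% at day −2 and 0.802% to 1.36% from day 1 on. A normalized count is the raw count rescaled to a library of average effective size, so values of 1 gene can be compared between libraries. The summed level of 6 adipocyte markers lay between 1029 and 1826 normalized counts at day −2 and between 217024 and 342704 at day 7, and that of 6 pre-adipocyte markers was 165496 to 246075 at day −2 and 12794 to 25992 at day 7. Macrophage markers summed to at most 146, muscle markers to at most 179 and endothelial markers to at most 20.5 in any library, and *Ptprc* and *Tyrobp* had no read in any library. Adiponectin (*Adipoq*), a secreted product of mature adipocytes, went from 289.7 ± 99.9 normalized counts (SD, n = 3) at day −2 to 108095 ± 6519 at day 7 in DMSO. *Pparg* read 10301, 1743 and 10926 in replicates A, B and C at day 7 in DMSO, so 1 of the 3 day 7 libraries was far below the others for this gene. In bulk RNA, more cells of a type and more RNA per cell cannot be told apart.

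The counted entries are 3′ ends on mm10. *Lpl* was counted at chr8:68904507-68906932 (+), *Slc27a1* at chr8:71586060-71587304 (+), *Acsl1* at chr8:46534481-46536051 (+), *Cd36* at chr5:17781690-17783349 (−), *Fabp5* at chr3:10016108-10016610 (+), *Fabp4* at chr3:10204342-10204519 (−) and *Dbi* at chr1:120113280-120113459 (−). *Cd36*, *Slc27a1* and *Acsl1* each have a second, shorter entry nested in the first, and the 2 *Fabp5* entries hold the same reads.

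RefSeq promoter windows on GRCm38.p6 were found for 4 of the 7 genes, *Cd36*, *Acsl1*, *Slc27a1* and *Dbi*, with 8 windows in all. The 250 bases before the start site are shown for *Cd36* and for both *Acsl1* starts, because these were the genes among the 4 that rose most from day −2 to day 7 and their windows hold different motifs. Both strands were searched for AGGTCA, the core sequence that PPAR and RXR receptors bind, for GGGCGG, the GC box, and for CCAAT, and matches are in capitals. No 2 matches overlap in these 3 windows.
Cd36, chr5:17835897-17836146 (−): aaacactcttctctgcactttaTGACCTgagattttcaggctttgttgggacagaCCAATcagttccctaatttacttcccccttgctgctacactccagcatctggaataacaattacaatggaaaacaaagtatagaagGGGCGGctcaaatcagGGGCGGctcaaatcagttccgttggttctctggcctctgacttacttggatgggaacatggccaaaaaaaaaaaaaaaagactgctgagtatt
Acsl1, chr8:46470787-46471036 (+): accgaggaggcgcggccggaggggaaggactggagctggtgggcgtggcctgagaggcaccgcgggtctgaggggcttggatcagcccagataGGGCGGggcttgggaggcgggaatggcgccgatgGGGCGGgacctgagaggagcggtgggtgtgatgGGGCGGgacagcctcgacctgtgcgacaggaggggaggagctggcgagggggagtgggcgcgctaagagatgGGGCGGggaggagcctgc
Acsl1, chr8:46490716-46490965 (+): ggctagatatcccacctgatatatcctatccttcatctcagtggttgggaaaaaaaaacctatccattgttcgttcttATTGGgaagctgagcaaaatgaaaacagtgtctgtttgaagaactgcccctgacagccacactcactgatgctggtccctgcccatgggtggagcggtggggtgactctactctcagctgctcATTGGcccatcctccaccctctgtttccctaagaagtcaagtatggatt

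The *Cd36* window holds AGGTCA on the opposite strand, beginning 228 bases before the start site, beside 1 CCAAT and 2 GGGCGG. No other window of the 8 holds AGGTCA, which 14.0% of all 32851 windows of this length hold. The upstream *Acsl1* window has GGGCGG at 4 places and no CCAAT, and the downstream one has CCAAT at 2 places on the opposite strand and no GGGCGG. Over all windows, GGGCGG was found in 32.7% and CCAAT in 33.8%. A match of letters does not show a site in use.

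Over the control time course all 7 genes rose. At day 3 and again at day 7, 7 of 7 were higher than at day −2 (edgeR quasi-likelihood test, adjusted p under 0.01), where 13.4% and 15.5% of all 26563 tested entries were called higher. The median log2 change of the 7 genes was 5.32 at day 3 and 3.95 at day 7, beside −0.02 and −0.06 over all entries. Most of the rise fell between day 1 and day 3, when 7 of 7 rose against 9.03% of entries. At day 1, 3 of 7 were higher than at day −2 (*Cd36*, *Lpl* and *Acsl1*) against 5.44% of entries, and *Slc27a1* was lower, as were 8.27% of entries. Without replicate A all 4 day 1 calls were lost, *Acsl1* with an adjusted p of 0.01, and without replicate C those of *Cd36*, *Lpl* and *Slc27a1* were lost, with adjusted p of 0.051, 0.0401 and 0.0433.

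**Figure D1:**
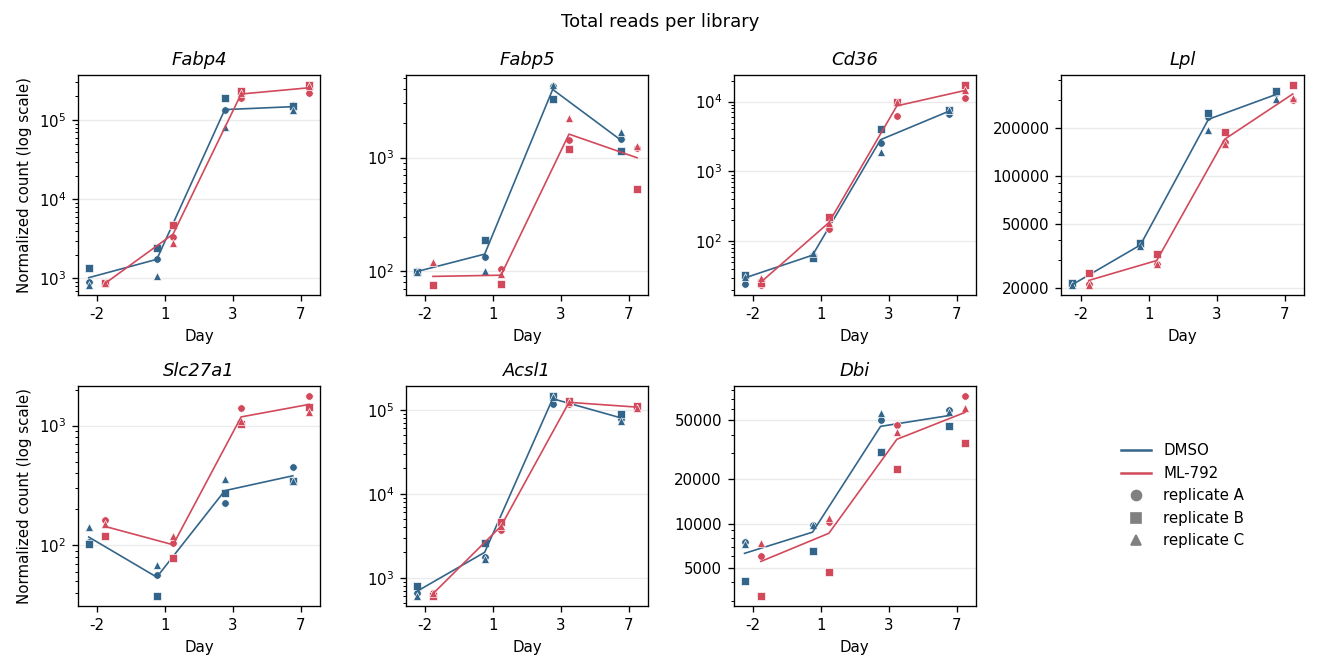
Normalized total count of each gene (y axis, log scale) by day (x axis) in DMSO (blue) and ML-792 (red). Each point is a library, with the marker giving its replicate letter, and lines join the means of 3 replicates. All 7 genes climb between days 1 and 3, and the *Slc27a1* curves lie apart from day 1 on.

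*Lpl*, whose enzyme frees the fatty acids that enter the cell, was already well read in pre-adipocytes. Its normalized total counts in DMSO were 20891, 21342 and 20732 at day −2, 36564, 38311.5 and 36516 at day 1, 235849.6, 249276 and 195429 at day 3 and 331418.5, 339735 and 303512 at day 7 in replicates A, B and C. No day overlapped with the day before it. The log2 change from day −2 was 0.82 ± 0.16 (SE, adjusted p = 0.00135) at day 1 and 3.95 ± 0.18 (SE, adjusted p = 1.93e-10) at day 7, a 15.5-fold rise. Here and below, the SE of a log2 change was derived from its test statistic. Between days 3 and 7 the change of 0.52 ± 0.16 (SE, adjusted p = 0.0355) did not pass the threshold, and it passed by DESeq2 (adjusted p = 0.000269) and with all 24 libraries fitted together (0.00923).

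*Cd36*, the membrane receptor for fatty acids, had few reads in pre-adipocytes and the largest rise of the 7. In DMSO its normalized counts were 24.5, 33.1 and 31.1 at day −2, 63.5, 57.4 and 67.6 at day 1, 2579, 4044 and 1891 at day 3 and 6530.1, 7631.5 and 7522 at day 7. Each day lay above the one before in every replicate. The log2 change was 1.09 ± 0.27 (SE, adjusted p = 0.00847) at day 1, 6.58 ± 0.30 (SE, adjusted p = 2.34e-10) at day 3 and 7.93 ± 0.31 (SE, adjusted p = 5.2e-11) at day 7, when the fold was 244. It was 1 of 2 genes that also changed between days 3 and 7, by 1.35 ± 0.23 (SE, adjusted p = 0.00071), while 5.32% of entries rose in that interval. That call was lost without replicate A (adjusted p = 0.0426) or without replicate C (adjusted p = 0.0301).

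*Slc27a1*, a transporter that also activates fatty acids, followed another course. Its counts in DMSO were 106, 103 and 141 at day −2, fell to 56.1, 37.4 and 68.5 at day 1, and stood at 226.5, 275 and 355 at day 3 and 448, 346 and 346 at day 7. The log2 change at day 1 was −1.11 ± 0.27 (SE, adjusted p = 0.00758), and the day 7 level was 3.25-fold that of day −2, with a log2 change of 1.70 ± 0.26 (SE, adjusted p = 7.3e-05). Without replicate A neither the fall (adjusted p = 0.0912) nor the day 7 rise (adjusted p = 0.0118) passed. The call at day 1 was also lost with upper quartile scaling (adjusted p = 0.0132) or without replicate B (0.0171), and that at day 3, 1.29 ± 0.26 (SE, adjusted p = 0.000923), without replicate A (0.0208) or C (0.0118).

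*Acsl1*, which makes acyl-CoA from long-chain fatty acids, peaked at day 3. Replicates A, B and C in DMSO read 656, 801 and 603 at day −2, 1789, 2579.7 and 1658 at day 1, 118702, 147282 and 139978 at day 3 and 76648, 89795 and 74004 at day 7. Its log2 change from day −2 was 1.55 ± 0.20 (SE, adjusted p = 4.88e-05) at day 1, 7.62 ± 0.26 (SE, adjusted p = 4.43e-11) at day 3, the highest of the 7 genes on that day, and 6.87 ± 0.25 (SE, adjusted p = 3.04e-11) at day 7. All 3 day 7 libraries lay below all 3 day 3 libraries. The difference of −0.76 ± 0.20 (SE, adjusted p = 0.0158) missed the threshold of 0.01 in the DMSO fit, and passed it when all 24 libraries were fitted together (adjusted p = 0.00137) and in DESeq2 (adjusted p = 0.00188).

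The *Fabp4* counts, those of the main adipocyte fatty acid carrier, were 903, 1350.4 and 816 at day −2 and 1759, 2405 and 1069.7 at day 1 in DMSO, and these overlapped. They reached 133782.5, 192879 and 82309.6 at day 3 and 156688, 152299 and 136313 at day 7, which overlapped as well. Day 3 was the most scattered day, with replicate B far above replicate C. The log2 change from day −2 was 0.77 ± 0.31 (SE, adjusted p = 0.0935) at day 1, 7.06 ± 0.40 (SE, adjusted p = 2.23e-09) at day 3 and 7.18 ± 0.41 (SE, adjusted p = 1.82e-09) at day 7, or 145-fold, and from day 3 to day 7 it was 0.12 ± 0.31 (SE, adjusted p = 0.842). The day 1 change passed without the filter on low counts (adjusted p = 0.00262) and with the replicate block (0.00422).

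*Fabp5*, the second carrier, rose and then fell. Its counts were 99.8, 99.3 and 98.6 at day −2, 134, 189.5 and 101 at day 1, 4265, 3295 and 4365 at day 3 and 1460.2, 1136 and 1685 at day 7 in DMSO. Every day 7 library lay below every day 3 library and above every pre-adipocyte library. The log2 change was 5.32 ± 0.26 (SE, adjusted p = 5.17e-10) from day −2 to day 3 and −1.48 ± 0.22 (SE, adjusted p = 0.000242) from day 3 to day 7, when 3.46% of entries fell. The second call was lost without replicate A (adjusted p = 0.0334). All values in *Fabp5* rest on 98.6 to 4365 normalized counts per library in DMSO, far fewer reads than for *Fabp4*.

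*Dbi*, the acyl-CoA binding protein, had the smallest log2 change of the 3 carriers. Its counts were 7507, 4101 and 7279.7 at day −2, 9855, 6558 and 9856 at day 1, 49947.5, 30279 and 56158 at day 3 and 58864, 45878 and 56525 at day 7 in DMSO. Replicate B was the lowest at each of these days. Its log2 change was 0.48 ± 0.27 (SE, adjusted p = 0.229) at day 1, 2.85 ± 0.28 (SE, adjusted p = 9.17e-07) at day 3 and 3.09 ± 0.29 (SE, adjusted p = 3.47e-07) at day 7, an 8.54-fold rise. The day 1 change passed with the replicate block (adjusted p = 0.00695).

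With ML-792 the 7 genes rose too, and 7 of 7 were higher at day 7 than at day −2, where 16.7% of entries were called higher. Their log2 changes in ML-792 (day 7 against day −2) were 9.11 for *Cd36*, 8.21 for *Fabp4*, 7.38 for *Acsl1*, 3.87 for *Lpl*, 3.46 for *Fabp5*, 3.39 for *Slc27a1* and 3.35 for *Dbi*, with adjusted p at most 1.74e-05. ML-792 was then compared with DMSO day by day, to see whether blocking SUMO conjugation altered the RNA of these genes. At day −2, 0 of 7 were called (edgeR, adjusted p under 0.1), DESeq2 called 0, and 0 of all 26563 entries were called, which is 0%. An unadjusted p under 0.05 was found for 0 of 7, beside 348 of the 26563 entries. At day 1, 4 of 7 were higher against 3.05% of entries. At day 3, 2 of 7 were higher and 2 lower, beside 6.87% and 5.99% of entries. At day 7, 3 of 7 were higher, beside 5.00% of entries, and none was lower. Beside these calls, the summed adipocyte markers read 77987 to 101556 in DMSO and 55695 to 73494 in ML-792 at day 3 and 217024 to 243331 against 264306 to 342704 at day 7, and the summed pre-adipocyte markers 11652 to 13868 against 24481 to 30316 at day 3 and 12794 to 19196 against 20135 to 25992 at day 7. The sums hide differences between markers. At day 7 mean *Adipoq* was 108095 in DMSO and 187040 in ML-792, *Pparg* 7657 and 10868 and *Plin1* 5918.5 and 7356. *Cidec* was level (74057 and 74316), and *Lipe* (27638 and 25726) and *Cebpa* (7758 and 6859) had lower means in ML-792. The libraries of the treatments overlapped at day 7 for all of these markers except *Adipoq*. At day 3 *Plin1* alone of the adipocyte markers had a higher mean in ML-792, with 4383 in DMSO and 6342 in ML-792, and its libraries overlapped. The part of the markers in the differences was not tested.

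**Figure D2:**
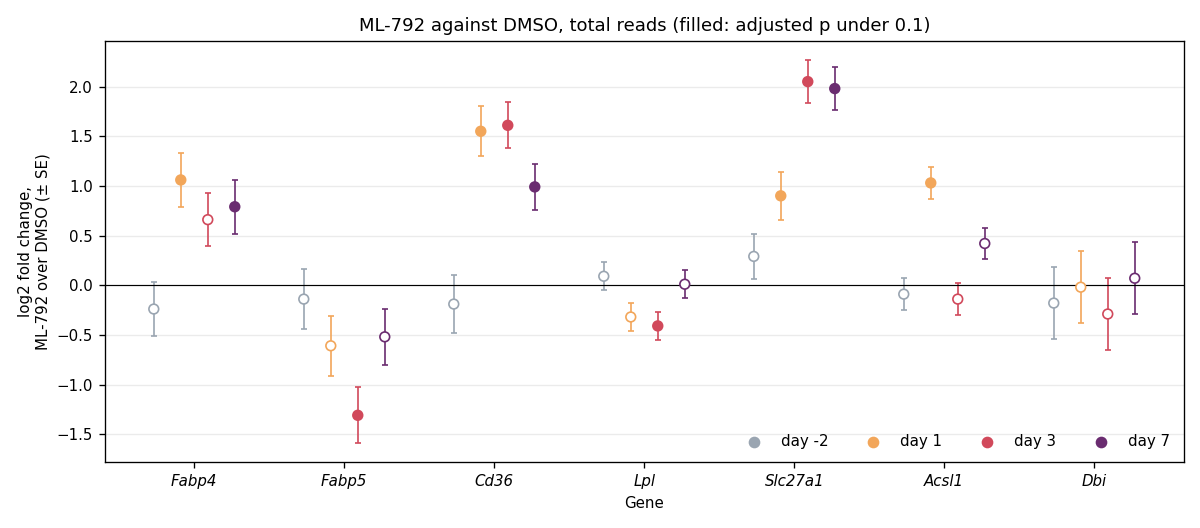
Log2 fold change of ML-792 over DMSO in total reads (y axis) for each gene (x axis), with 1 point per day and bars of 1 SE. The SE was derived from the test statistic. Filled points passed an adjusted p of 0.1 in edgeR. *Slc27a1* reaches 2.05 at day 3 and *Cd36* 1.61, while *Fabp5* lies at −1.31.

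*Slc27a1* had the largest difference between treatments of the 7 genes at days 3 and 7. In ML-792 its counts were 162, 119 and 149 at day −2, 104, 77.9 and 120.3 at day 1, 1408, 1036 and 1100.2 at day 3 and 1780.0, 1427 and 1304 at day 7. From day 1 on, every ML-792 library lay above every DMSO library of the same day. The log2 difference was 0.29 ± 0.23 (SE, adjusted p = 1) at day −2, 0.90 ± 0.24 (SE, adjusted p = 0.0276) at day 1, 2.05 ± 0.22 (SE, adjusted p = 6.53e-07) at day 3 and 1.98 ± 0.22 (SE, adjusted p = 1.68e-06) at day 7, so the level was 4.14-fold and 3.96-fold that of DMSO on the last 2 days. The day 1 call did not hold in the 6 libraries of that day alone (adjusted p = 0.25), without replicate A (0.293) or without replicate C (0.149). The calls at days 3 and 7 held in each of these fits.

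*Cd36* was also higher in ML-792, whose libraries read 23.2, 24.8 and 29.5 at day −2, 149.8, 219.8 and 183 at day 1, 6302, 9886 and 9820.0 at day 3 and 11149, 17341 and 14674 at day 7. The treatments overlapped at day −2 and were apart on the other 3 days. The log2 difference was 1.55 ± 0.25 (SE, adjusted p = 0.00025) at day 1, 1.61 ± 0.23 (SE, adjusted p = 2.47e-05) at day 3 and 0.99 ± 0.23 (SE, adjusted p = 0.00614) at day 7. The last of these was lost without replicate C (adjusted p = 0.121).

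*Acsl1* passed the test at day 1 alone, with ML-792 counts of 3656, 4557 and 4126.5 and a log2 difference of 1.03 ± 0.16 (SE, adjusted p = 0.000188). At day 3 the treatments overlapped, with 118534, 127095 and 122120.2 in ML-792 and a difference of −0.14 ± 0.16 (SE, adjusted p = 0.718). At day 7 the ML-792 libraries read 105946, 111616 and 104954, all above the DMSO libraries. That difference of 0.42 ± 0.16 (SE, adjusted p = 0.13) passed in DESeq2 (0.0597), with upper quartile scaling (0.0912), with the replicate block (0.0147) and without replicate B (0.00912).

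*Fabp4* read 841, 879.6 and 878 at day −2, 3325, 4756 and 2842 at day 1, 188897, 236662 and 218559 at day 3 and 222119.9, 280292 and 269565 at day 7 in ML-792. These were above DMSO in all libraries at days 1 and 7 and overlapped with it at days −2 and 3. The log2 difference was 1.06 ± 0.27 (SE, adjusted p = 0.0211) at day 1, 0.66 ± 0.27 (SE, adjusted p = 0.153) at day 3 and 0.79 ± 0.27 (SE, adjusted p = 0.085) at day 7. The day 3 difference passed without replicate B (0.0209), without the filter on low counts (0.0138) and with the replicate block (0.0104). Neither of the other calls held without replicate A, with adjusted p of 0.345 and 0.381, or without replicate C, with 0.12 and 0.282.

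*Fabp5* and *Lpl* lay on the other side. In ML-792 *Fabp5* read 105, 76.8 and 95.1 at day 1, 1421, 1194 and 2208 at day 3 and 1206, 524 and 1261 at day 7, and only at day 3 did all 3 libraries lie below those in DMSO. The log2 difference at day 3 was −1.31 ± 0.28 (SE, adjusted p = 0.00281), and it was lost without replicate A (adjusted p = 0.187). *Lpl* read 162967, 188670.3 and 159378 at day 3 in ML-792, below every DMSO library, with a log2 difference of −0.41 ± 0.14 (SE, adjusted p = 0.0635). This small difference did not hold without the filter on low counts (adjusted p = 0.3), in the 6 libraries of day 3 alone (0.266), without replicate A (0.549) or without replicate C (0.282). At day 1 too the 3 ML-792 libraries, 28274, 32691 and 28093, lay below those in DMSO, with a difference of −0.32 ± 0.14 (SE, adjusted p = 0.25) that passed without replicate B (0.0524) and with the replicate block (0.0366). At day 7 *Lpl* read 298056, 372498 and 309384 in ML-792, overlapping with DMSO, with a difference of 0.01 ± 0.14 (SE, adjusted p = 0.991).

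*Dbi* overlapped between the treatments on every day. Its ML-792 libraries read 6083, 3229 and 7342 at day −2, 10252, 4715.5 and 10848.5 at day 1, 46417, 23314 and 41808 at day 3 and 73381, 35321 and 60731 at day 7, with replicate B lowest each time. Log2 differences lay between −0.29 and 0.07, with an SE of 0.36.

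Whether the treatment effect depended on the day was tested with the interaction of day and treatment. It passed for 3 of 7 genes, against 9.66% of entries: *Slc27a1* (adjusted p = 0.000863), *Acsl1* (0.00317) and *Cd36* (0.00807). The ML-792 effect at day 7 exceeded that at day −2 for *Slc27a1*, by 1.69 ± 0.31 (SE, adjusted p = 0.00297) on the log2 scale, where 1.64% of entries were called in this direction. This was lost without replicate A (adjusted p = 0.134) or C (0.116). For *Cd36* the same contrast was 1.18 ± 0.37 (SE, adjusted p = 0.108) and for *Fabp4* 1.03 ± 0.38 (SE, adjusted p = 0.222), neither past the threshold. *Cd36* passed by DESeq2 (adjusted p = 0.0631), without the filter on low counts (0.0269), with 1 entry per gene (0.088) and with the replicate block (0.0185). *Fabp4* passed without the filter (0.0116) and with the block (0.0286), and *Acsl1* with the block (0.081). Without replicate A no gene of the 7 passed the interaction test, and without replicate C 1 did.

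Ordered by mean level over the 8 conditions, *Slc27a1* had its lowest mean in DMSO at day 1 and its 2 highest in ML-792 at days 3 and 7, whose libraries all lay above those of DMSO at days 3 and 7. For *Cd36* and *Fabp4* ML-792 at day 7 was highest, with ML-792 at day 3 next, and the libraries of these 2 conditions overlapped for *Fabp4* and not for *Cd36*. For *Fabp5* DMSO at day 3 was highest and did not overlap with ML-792 at day 3, the next. For *Acsl1* DMSO and ML-792 at day 3 were highest and overlapped with each other. For *Lpl* and *Dbi* the 2 highest means were those of day 7 in ML-792 and DMSO, which overlapped.

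Labelled reads of most of these genes also rose over the control time course. In labelled reads, normalized with the factors of the total reads, 6 of 7 genes were higher at day 3 than at day −2 and 5 of 7 at day 7, where 1.84% and 1.73% of the 10589 tested entries were called higher. Between days 1 and 3, 5 of 7 rose against 1.35% of entries. The median log2 change over all entries was −1.70 at day 3 and −1.54 at day 7, and 2.75 and 2.23 over the 7 genes. Scaled by labelled reads instead, the median over all entries was −0.18 and −0.12, and the calls at day 7 went from 183 higher and 3010 lower to 587 higher and 504 lower, those at day 3 from 195 and 3449 to 667 and 507, and those between days 1 and 3 from 143 and 175 to 231 and 136. The calls on the 7 genes in these comparisons kept their direction and side of the threshold under that scaling.

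**Figure D3:**
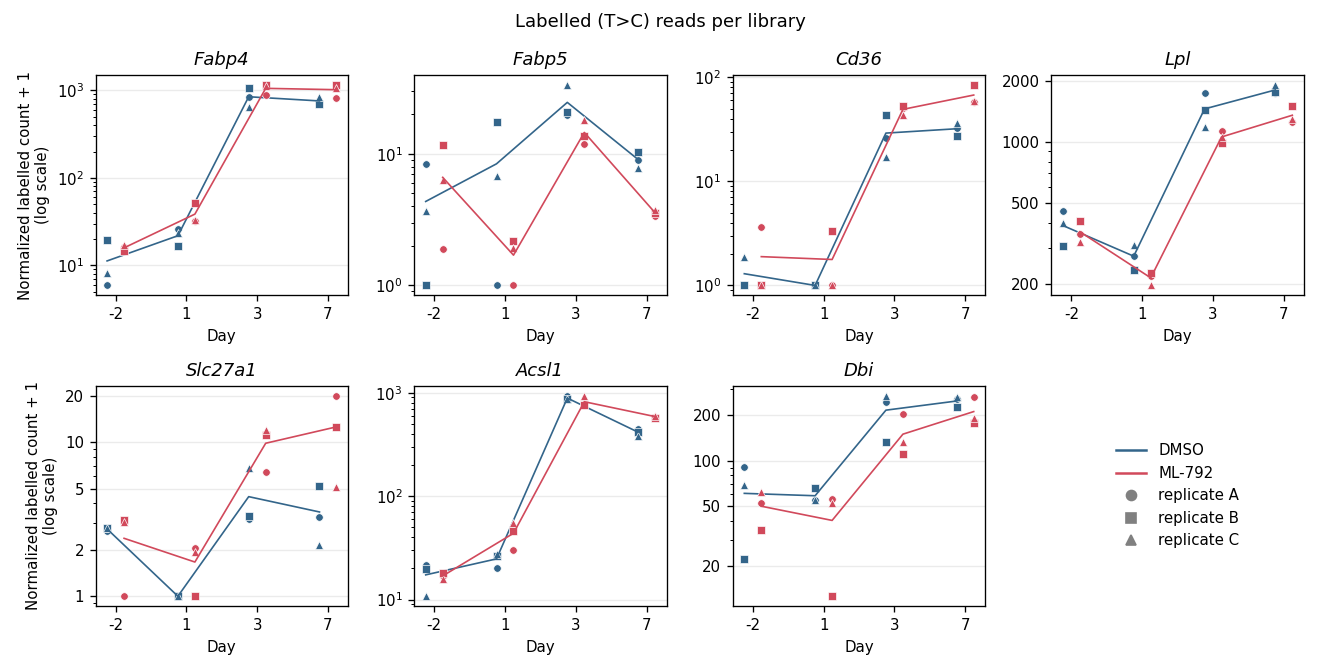
Normalized labelled count plus 1 (y axis, log scale) by day (x axis) in DMSO (blue) and ML-792 (red), with 1 point per library and lines through the means of 3 replicates. *Fabp4*, *Lpl*, *Acsl1* and *Dbi* have the most labelled reads, whereas *Fabp5*, *Slc27a1* and, before day 3, *Cd36* have few.

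Labelled *Fabp4* counts were 4.91, 18.8 and 7.11 at day −2, 24.8, 15.5 and 22.3 at day 1, 843, 1052.5 and 640.0 at day 3 and 736, 699.8 and 835 at day 7 in DMSO. Days 3 and 7 overlapped, and both lay far above days −2 and 1. The log2 change from day −2 was 6.36 ± 0.42 (SE, adjusted p = 1.59e-17) at day 3 and 6.20 ± 0.42 (SE, adjusted p = 2.7e-17) at day 7.

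Labelled *Acsl1* counts were 20.4, 18.8 and 9.77 at day −2, 19.3, 25.5 and 26.4 at day 1, 926, 870.5 and 866 at day 3 and 445, 417 and 383 at day 7. As in total reads, all day 7 libraries lay below all day 3 libraries. The log2 change from day −2 was 5.75 ± 0.39 (SE, adjusted p = 1.59e-17) at day 3 and 4.65 ± 0.37 (SE, adjusted p = 4.54e-15) at day 7, and that from day 3 to day 7 was −1.10 ± 0.31 (SE, adjusted p = 0.0824). DESeq2 called this last fall (adjusted p = 0.0027).

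Labelled *Lpl* counts were 456, 304 and 398 at day −2, 274, 231 and 311 at day 1, 1735.5, 1439.6 and 1188.5 at day 3 and 1747, 1756 and 1913 at day 7, with overlap between days −2 and 1 and none between the later days. The log2 change was −0.50 ± 0.27 (SE, adjusted p = 0.139) at day 1 and 2.23 ± 0.28 (SE, adjusted p = 8.92e-09) at day 7.

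Labelled *Dbi* counts were 89.2, 21.5 and 68.4 at day −2 and 255, 224 and 263 at day 7, a log2 change of 2.05 ± 0.39 (SE, adjusted p = 3.95e-05). At day 3 they were 244, 132 and 268.5, and the change of 1.84 ± 0.39 (SE, adjusted p = 0.000156) from day −2 was lost without replicate C (0.0108). Labelled *Cd36* stood at 0, 0 and 1 raw reads in replicates A, B and C at day −2 and at 0, 0 and 0 at day 1. With 23, 37 and 14 reads at day 3 and 28, 25 and 31 at day 7, it was at least 10.8-fold and 11.9-fold higher than a floor of 3 reads per day −2 library (adjusted p = 1.71e-06 and 1.06e-06). *Fabp5* had 9, 0 and 3 labelled reads at day −2, 17, 17 and 28 at day 3 and 7, 9 and 6 at day 7. Its call at day 3, 2.75 ± 0.87 (SE, adjusted p = 0.00787), was lost without replicate B (adjusted p = 0.028) or replicate C (0.0998). *Slc27a1* had at most 5 labelled reads in any DMSO library, so only large changes of its new RNA could have been seen.

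At day 1, 0 of 7 genes were called in labelled reads by edgeR and 0 by DESeq2, while edgeR called 19.7% of entries, 0.567% higher and 19.1% lower. At an unadjusted p under 0.05 there were 2 genes (*Fabp4* and *Slc27a1*), beside 4880 of 10589 entries. Scaled by labelled reads, which moved the calls over all entries from 60 higher and 2022 lower to 263 and 275, 3 genes passed as higher: *Fabp4* by 2.19, *Acsl1* by 1.78 and *Dbi* by 1.29 on the log2 scale. *Dbi* had −0.06 ± 0.39 (SE) under the factors of the total reads. Between days 3 and 7, 0 of 7 were called by edgeR against 0.236% of entries (18 higher and 7 lower, or 22 and 27 scaled by labelled reads). *Acsl1* alone of the 7 had an unadjusted p under 0.05, beside 1078 of 10589 entries, and it alone was called by DESeq2. In ML-792, 5 of 7 genes were higher in labelled reads at day 7 than at day −2, against 1.73% of entries, namely *Fabp4*, *Cd36*, *Lpl*, *Acsl1* and *Dbi*, while scaling by labelled reads moved all calls from 183 higher and 3989 lower to 693 and 554. *Slc27a1* had 0, 3 and 3 labelled reads at day −2 and 16, 9 and 3 at day 7 in ML-792. Its day 7 mean was 5.10-fold a floor of 3 reads per day −2 library, while replicate C at day 7 was itself at 3 reads. The change had an adjusted p of 0.0117 in edgeR, which missed 0.01. It passed by DESeq2 (0.00527) and scaled by labelled reads (0.000172).

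Between ML-792 and DMSO, labelled reads gave no call for these genes. At days −2, 1, 3 and 7, 0 of 7 passed in edgeR, against 0%, 0.888%, 0.916% and 0.869% of entries in either direction. At an unadjusted p under 0.05 there were 0, 3, 0 and 1 genes, beside 75, 1181, 1058 and 1198 of the 10589 entries. DESeq2 called 0, 1, 0 and 0 genes. Scaled by labelled reads, the calls over all entries moved from 14 higher and 80 lower to 36 and 40 at day 1, from 38 and 59 to 66 and 66 at day 3 and from 5 and 87 to 35 and 51 at day 7. The gene called at day 1 by DESeq2 was *Acsl1*, which read 28.9, 45.4 and 54.1 in ML-792 against 19.3, 25.5 and 26.4 in DMSO. These did not overlap, and the log2 difference was 0.85 ± 0.30 (SE, adjusted p = 0.212) in edgeR. It passed with DESeq2 (adjusted p = 0.0825), with the replicate block (0.0987) and scaled by labelled reads (0.04).

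Labelled *Fabp4* at day 1 was 31.0, 50.0 and 31.7 in ML-792, all above DMSO, with a difference of 0.84 ± 0.32 (SE, adjusted p = 0.26). Labelled *Cd36* at day 7 was 57.2, 83.6 and 58.7 in ML-792 against 31.6, 26.1 and 35.4 in DMSO, again with no overlap, and its difference of 1.10 ± 0.52 (SE, adjusted p = 0.407) did not pass. For both genes the labelled difference had the sign of the called difference in total reads, of which labelled reads are a part. Labelled *Lpl* ran the other way, with every ML-792 library below every DMSO library at days 1, 3 and 7. Its log2 differences on those days were −0.36, −0.46 and −0.41 (adjusted p = 0.623, 0.504 and 0.515 in edgeR), and none passed. Over all entries the median labelled log2 difference on those days was −0.30, −0.08 and −0.37. All ML-792 libraries lay below all DMSO libraries for 12.1%, 7.49% and 13.0% of genes. The labelled *Slc27a1* counts at day 7 were 2, 4 and 1 raw reads in DMSO and 16, 9 and 3 in ML-792, which overlapped. Labelled *Fabp5* at day 7 was 7, 9 and 6 raw reads in DMSO and 2, 2 and 2 in ML-792. The DMSO mean was 2.09-fold a floor of 3 reads per ML-792 library, and the difference did not pass in edgeR (adjusted p = 0.57). At day 1 labelled *Fabp5* was 0, 18 and 7 in DMSO and 0, 1 and 1 in ML-792. The interaction of day and treatment called 0 of 7 genes in labelled reads by edgeR, against 0.246% of entries, and 0 by DESeq2. At an unadjusted p under 0.05 there were 0 genes, beside 855 of 10589 entries. The day 7 minus day −2 effect likewise called 0 of 7 in edgeR, against 0.0850% of entries, and 0 by DESeq2. Here 0 genes had an unadjusted p under 0.05, beside 597 of 10589 entries.

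The share of a gene's reads that was labelled relates its labelled reads to all its reads. For *Lpl*, *Acsl1* and *Dbi* the mean share lay below that of all reads of the library in 8 of 8 conditions, and for *Fabp4*, *Cd36* and *Slc27a1* in 7 of 8. For *Fabp5* it did in 5 of 8, and *Fabp5*, *Cd36* and *Slc27a1* had few labelled reads. *Lpl* had 1.84% ± 0.384 labelled reads (SD, n = 3) at day −2 and 0.558% ± 0.0627 at day 7 in DMSO, *Acsl1* 2.36% ± 0.749 and 0.521% ± 0.0578, and *Dbi* 0.884% ± 0.336 and 0.462% ± 0.0279. All reads together had 3.17% ± 0.485 and 1.03% ± 0.0869. The share fell in these genes and in the libraries as a whole, with no test made. *Fabp4* started lower, at 0.935% ± 0.427, stood at 1.38% ± 0.719 at day 1, where its replicates ranged from 0.644% to 2.08%, and ended at 0.514% ± 0.0856. In ML-792 at day 7 the shares were 0.394% ± 0.0224 for *Fabp4*, 0.415% ± 0.0095 for *Lpl*, 0.547% ± 0.029 for *Acsl1* and 0.392% ± 0.0985 for *Dbi*, and 0.837% ± 0.031 for all reads. T made up 61 of 180 bases of the counted entry in *Dbi*, 65 of 178 in *Fabp4* and 661 of 2426 in *Lpl*. The parts of T content and of T>C mismatches from other sources in these shares were not tested.

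**Figure D4:**
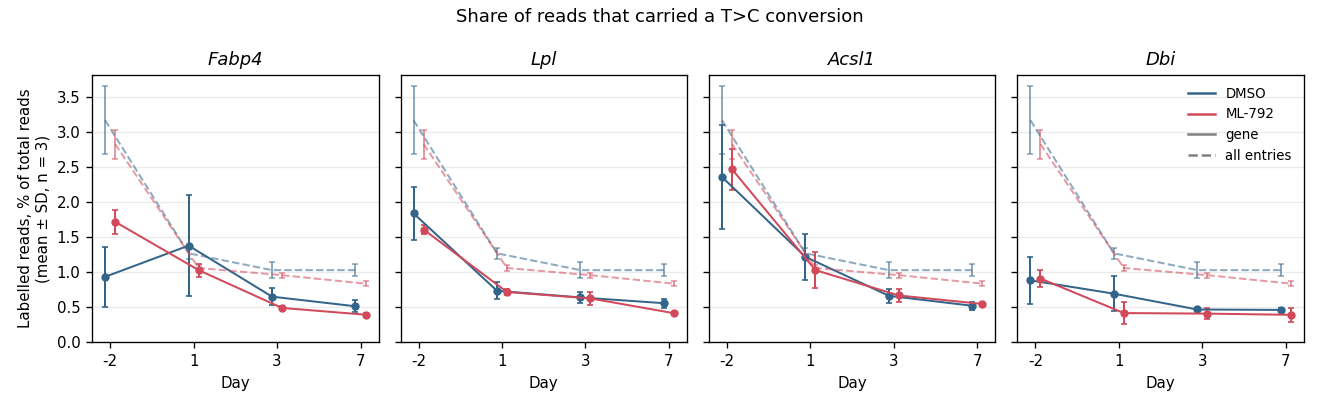
Labelled reads as a percentage of total reads (y axis, mean and SD of 3 replicates) by day (x axis) for the 4 genes with the most labelled reads, in DMSO (blue) and ML-792 (red). Solid lines are the gene and dashed lines all reads of the libraries, which go from 3.17% ± 0.485 at day −2 to 1.03% ± 0.0869 at day 7 in DMSO.

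Reads beyond the shorter of 2 nested entries come from the more distal part of a 3′ end. They made up 54.7% to 72.4% of *Acsl1* reads over the 24 libraries, with condition means from 58.4% to 64.7%, while *Acsl1* itself rose 197-fold by day 3. For *Cd36* the distal part held 2.27% to 11.6% by condition mean, and for *Slc27a1* 63.2% to 84.7%. No trend with day or treatment was tested for these shares.

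The other genes of fatty acid uptake, binding and lipoprotein lipase control were taken from a list of 42, of which 28 passed the filter in total reads and 13 in labelled reads. At day 7 against day −2 in DMSO, 12 of the 28 were higher and 3 lower, with a median log2 change of 0.27, beside 15.5% and 17.1% of all entries and a median of −0.06. *Ffar4*, the receptor for long-chain fatty acids, went from 0, 0.89 and 0 to 194, 221 and 405.5 normalized counts, at least 105-fold (adjusted p = 6.93e-08). *Angptl8*, which encodes a secreted protein, had no read at day −2 and 48.5, 75.1 and 29.7 at day 7, at least 19.7-fold (adjusted p = 6.73e-05). *Fabp12*, of the same family as *Fabp4*, had no read at day −2 and 54.2, 40.7 and 42.3 at day 7, at least 17.6-fold (adjusted p = 2.97e-05). With almost no reads at day −2, *Ffar4*, *Angptl8* and *Fabp12* passed the filter through later conditions and could be called higher only. The 3 that fell were *Slc27a3*, by 0.98 on the log2 scale (adjusted p = 0.00611), *Acbd3*, by 0.84 (0.00134), and *Acsl5*, an acyl-CoA synthetase like *Acsl1*, by 0.81 (0.00156). The other 9 that rose were *Slc27a4*, *Acsbg1*, *Acbd4*, *Scp2*, *Lmf1*, *Sel1l*, *Angptl4*, *Vldlr* and *Scarb1*. In labelled reads 2 of 13 fell, *Acbd3* by 2.61 (adjusted p = 0.000622) and *Acsl4* by 1.84 (0.00436), and none rose, beside 28.4% of entries called lower and 1.73% higher under the factors of the total reads, or 587 entries higher and 504 lower scaled by labelled reads.

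At day 7, cells in ML-792 had 4 of the 28 genes higher than in DMSO and 5 lower, with a median log2 difference of −0.06 beside 0.00 over all entries, against 5.00% and 4.60% of entries. *Lipg*, endothelial lipase, had no read in DMSO at day 7 and 91.7, 95.2 and 42.3 normalized counts in ML-792, at least 23.1-fold higher (adjusted p = 0.00015). With no read in that DMSO group, *Lipg* passed the filter through other conditions and could be called in this direction only. *Gpihbp1*, which anchors lipoprotein lipase on capillary walls in tissue, read 1.13, 16.7 and 10.3 in DMSO and 64.3, 60.5 and 49.2 in ML-792, a log2 difference of 2.61 ± 0.81 (SE, adjusted p = 0.0644). *Acsl5* read 425, 470.4 and 504 in DMSO and 1097, 812 and 939.7 in ML-792, a difference of 1.03 ± 0.18 (adjusted p = 0.000427). Beside these genes, endothelial markers had a summed level of 4.57 to 17.7 in DMSO and 3.86 to 9.53 in ML-792 at day 7 and no read for *Cdh5* in either.

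Among the genes lower in ML-792, *Angptl8* read 7.15, 1.29 and 2.73 against 48.5, 75.1 and 29.7 in DMSO, a log2 difference of −3.72 ± 0.90 (adjusted p = 0.0152). *Sel1l*, an adaptor of the endoplasmic reticulum needed for lipoprotein lipase to leave it, read 3174, 2701 and 2778 against 4956, 5571 and 4368, a difference of −0.78 ± 0.13 (adjusted p = 0.000262). *Slc27a3* read 54.8, 18.01 and 34.1 against 71.1, 66.8 and 70.8, a difference of −0.96 ± 0.34 (adjusted p = 0.0961). Each was below every DMSO library in all 3 replicates. In labelled reads 0 of 13 passed in edgeR, against 0.869% of entries, and 0 by DESeq2. None of the 13 had an unadjusted p under 0.05, beside 1198 of 10589 entries.

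The spread between replicates was not the same for all 7 genes. Replicate B of *Dbi* was the lowest of the 3 in 8 of 8 conditions, at a median of 0.542 times the mean of the other 2 libraries. Of 13331 genes tested, 1050 (7.88%) had replicate B lowest in all 8 conditions and 656 had it highest, while replicate A was lowest in 49 and replicate C in 137. *Fabp4* ran the other way, with replicate B highest in 7 of 8 conditions. What the letters share across conditions is not stated. Without replicate B, the *Dbi* change from day −2 to day 7 in DMSO was 2.96 on the log2 scale (adjusted p = 4.61e-10), and no *Dbi* comparison of treatments passed.

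**Figure D5:**
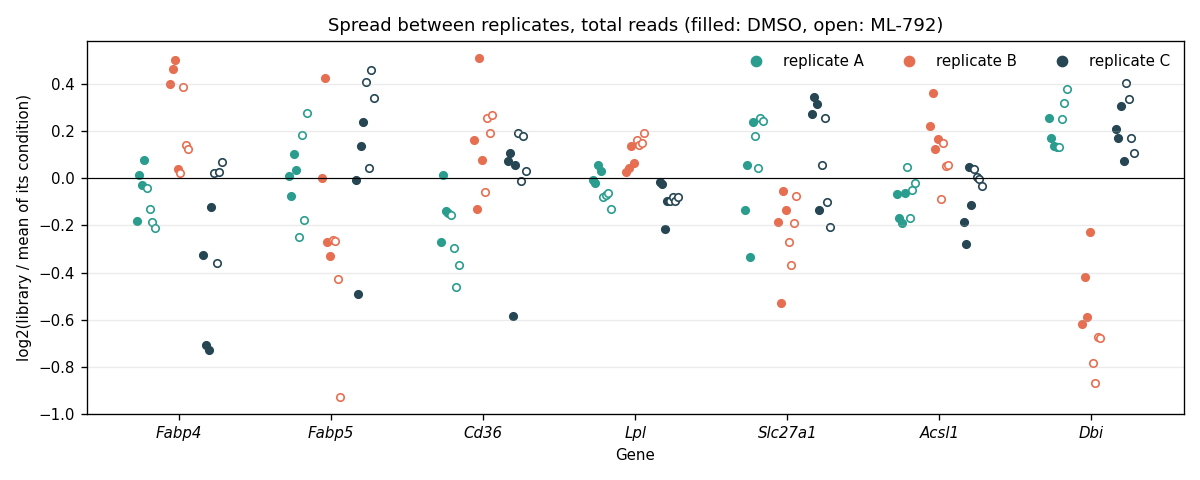
Log2 ratio of each library's normalized total count to the mean of its condition (y axis) for each gene (x axis), coloured by replicate letter, with filled points for DMSO and open points for ML-792. Replicate B of *Dbi* lies below 0 in all 8 conditions, while *Lpl* has the narrowest spread.

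Over the 24 libraries the log2 normalized total counts of the 7 genes moved together, with Pearson correlations from 0.990 between *Fabp4* and *Cd36* down to 0.702 between *Fabp5* and *Slc27a1*. These are descriptions over libraries that share days and treatments. Among 13324 other genes, those most like each member were *Dlat* and *Pdhx* for *Fabp4* (r = 0.989 and 0.988), *Pdhb* and *Hdhd3* for *Dbi* (0.988 and 0.987), *Pex11a* and *Ppargc1b* for *Acsl1* (0.996 and 0.994), and *Decr1* and *Plin1* for *Cd36* (0.987 and 0.984). They were *Atl2* and *Coq5* for *Lpl* (both 0.991), *Tmem216* and *Tmem120a* for *Fabp5* (0.980 and 0.968), and *Sdpr* and *Mmd* for *Slc27a1* (0.954 and 0.946). *Dlat*, *Pdhx* and *Pdhb* encode parts of the pyruvate dehydrogenase complex, *Decr1* an enzyme of fatty acid oxidation and *Plin1* a coat protein of lipid droplets.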

How the data were processed

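3T3-L1 cells in DMSO or ML-792 were profiled at 4 time points with 3 replicates, 24 libraries in all. The authors prepared QuantSeq 3′ libraries (base calling with bcl2fastq 2.17.1.14, per the submitters' processing notes), used SlamDunk for mapping to mm10, filtering and counting on 3′UTR coordinates of RefSeq genes. The deposited values are raw counts of all reads and of reads with at least 1 T>C conversion for 91830 entries, not normalized. In each deposited file 6 columns of libraries match no sample and were left out. The authors fitted DESeq2 and applied the size factors of total reads to labelled reads. Here edgeR 4.0.16, with limma 3.58.1 in R 4.3.3, was used, and labelled counts were scaled in the same way, by the effective library sizes (TMM) of the total counts.

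Entries were kept by filterByExpr over the 8 conditions (minimum count 10, minimum total 15). A gene with almost no reads in most conditions passes this filter through those where it is high, so its calls lean in that direction. Quasi-likelihood tests were run on the 12 libraries of 1 treatment for the time course (adjusted p under 0.01) and on all 24 for treatments and the interaction (under 0.1), with Benjamini-Hochberg adjustment over all entries tested. Log2 changes carry a prior count. The SE beside a log2 change is its absolute value divided by the square root of the F statistic of its test. It is thus not a separate estimate from the fit, and is least reliable where the change is smallest. Changes against a group with at most 3 reads per library are given against a floor of 3 reads. Such a fold divides the mean of the higher group by that floor and does not cover the spread of the higher group. Counts are reads without molecular identifiers, so a floor of 3 counts covers counting error only. DESeq2 1.42.0 and other scalings, filters and replicate sets served as alternatives, and the tests were tested on simulated data. Figures were drawn with Python 3.11.15.

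The genes and lists were chosen with earlier results of these data known. Named are the 7 genes in every comparison, *Adipoq* and *Pparg* as references, the 3 highest and 3 lowest called genes of the list of 42 at day 7 in 2 comparisons, and for each gene the 2 genes with the highest Pearson correlation over 24 libraries, with a pseudocount of 1. Other list members are named without values where a count is given.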

Additional observations from a re-analysis of the deposited data

Results flagged for a closer look

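For 3 genes the effect of ML-792 differed between days by a test of the difference itself in total reads. *Slc27a1* passed the interaction of day and treatment with an adjusted p of 0.000863 in edgeR, and its ML-792 effect at day 7 exceeded that at day −2 by 1.69 on the log2 scale (adjusted p = 0.00297), with the 3 ML-792 libraries above the 3 DMSO libraries at days 1, 3 and 7. *Acsl1* passed the interaction with an adjusted p of 0.00317, its difference being 1.03 at day 1 and −0.14 at day 3. *Cd36* passed with 0.00807, its difference being −0.19 at day −2 and 1.61 at day 3. Without replicate A 0 of the 7 genes passed the interaction, and without replicate C 1 did. The *Slc27a1* difference between days 7 and −2 was lost without replicate A (adjusted p = 0.134) or C (0.116).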

How the results depend on the processing

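Of 24 counts of genes called out of the 7, 14 stayed within 1.5 times of the reported count under every alternative, among them those of day 3 and day 7 against day −2 in both read kinds. Some of the 14 held no call under any setting. These were ML-792 at day −2 in both read kinds. In labelled reads they were also ML-792 at days 3 and 7, the interaction and the day 7 minus day −2 effect. No count in total reads for ML-792 from day 1 on, the interaction or the effect difference was among the 14. Leaving out 1 replicate letter gave 0 to 3 genes at day 1 against day −2 in total reads and 0 to 1 in labelled reads, 0 to 4 between days 3 and 7 in total reads and 0 to 1 in labelled reads. It gave 2 to 5 genes for ML-792 at day 1, 2 to 5 at day 3, 1 to 4 at day 7, 0 to 4 for the interaction and 0 to 1 for the day 7 minus day −2 effect, all in total reads. The low ends came without replicate A or C and leave 2 libraries per condition. Between days 3 and 7, 4 genes were called in total reads with all 24 libraries in 1 fit and 4 by DESeq2, and 1 in labelled reads by DESeq2. The interaction called 5 genes without the filter on low counts and 5 by DESeq2. The day 7 minus day −2 effect in total reads called 3 without the filter, 2 with 1 entry per gene and 2 by DESeq2. Labelled reads at day 1 gave 1 gene for ML-792 by DESeq2 and 1 scaled by labelled reads, and 3 against day −2 scaled by labelled reads, where *Dbi* turned from −0.06 to 1.29. Without TMM factors the day 7 level in DMSO moved by more than 1 SD for *Fabp4* and *Lpl*. The cause of these shifts was not tested. Calls over all entries are not given here for DESeq2, other filters or entries, the single fit and the left-out letters. Under those settings a shift in the 7 genes cannot be told from a general shift in calls.

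Libraries with the same letter did not deviate together throughout, with a mean correlation of 0.163 over 84 pairs in total reads, 62 of them above 0.1, against −0.0806 between different letters, and 0.0626 in labelled reads, against −0.0312. Since not every pair was above 0.1, the letters were not taken as pairs. That rule cannot show that the letters share nothing. Any shared part stays in the error of the main fits, where it can hide differences, so a missed call there is weak evidence of no change. With the letter as a replicate block, 6 genes were called at day 1 against day −2, 5 genes were called for the interaction, 4 for the day 7 minus day −2 effect and 4 between days 3 and 7 in total reads, and 1 between days 3 and 7 and 1 for ML-792 at day 1 in labelled reads. Over all entries the block moved the calls for ML-792 in total reads from 1741 to 3594 at day 1, 3415 to 5464 at day 3 and 2550 to 4841 at day 7, those of the interaction from 2567 to 5568, of the day 7 minus day −2 effect from 860 to 2457, of day 1 against day −2 from 3642 to 5628 and between days 3 and 7 from 2330 to 3969. In labelled reads it moved them for ML-792 from 94 to 259, 97 to 176 and 92 to 228, for the interaction from 26 to 111, for the effect difference from 9 to 33 and between days 3 and 7 from 25 to 62. With few labelled reads for *Fabp5*, *Slc27a1* and early *Cd36*, only large changes of their new RNA could have been seen.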

Other observations

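*Fabp4* and *Fabp5* lie in a cluster of 5 related genes that spans 230.0 kb of chromosome 3 on mm10, with *Pmp2*, *Fabp9* and *Fabp12* beside them. Total reads were unequal along it. *Fabp12* had at most 2 reads in any library before day 3, at most 48 in DMSO at day 7 and 82.2, 102 and 97.0 normalized counts in ML-792 at day 7. *Fabp9* had at most 2 reads in any library before day 3 and at most 16 at any time, and *Pmp2* at most 12 in any library, and neither passed the filter. *Fabp12* passed it through days 3 and 7 alone, whereas *Fabp4* and *Fabp5* already had up to 2640 and 208 reads per library at day 1 in DMSO. At days 3 and 7 the highest library held 217848 reads for *Fabp4*, 3898 for *Fabp5* and 79 for *Fabp12*, and 16 for *Fabp9* and 12 for *Pmp2*.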
